A study of Mus musculus with 12 samples.

Results

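The ER stress and ATF4 response genes described here are 10 of the 41743 gene rows measured in 12 mouse livers. They were chosen by name, as 4 genes of a chaperone arm (Hspa5, Dnajb9, Herpud1 and Xbp1) and 6 genes of an ATF4 arm (Atf4, Ddit3, Trib3, Chac1, Asns and Fgf21), by a rule that uses no measured value, though with earlier results of these data known. Of the 10, 9 were listed under their exact name. Ddit3 was listed as a pair of numbered rows, and the row with the identifier ENSMUSG00000025408 is used, since the other row was at 0 in every library.

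The livers came from female mice, and the study analysed adults at 3 to 4 months of age. YAP1 KO mice (C57BL/6) carried Foxa3-Cre, floxed Yap1 alleles and a floxed-stop EYFP reporter at the ROSA locus, and were compared with WT (C57BL/6) littermates. YKTH mice (YAP1 KO TAZ Heterozygote) carried Foxa3-Cre with deletion of Yap1 and of 1 allele of Wwtr1, the gene of TAZ, and were compared with WT (mixed) littermates on a C57BL/6-FVB background. Each of these 4 groups held 3 individually numbered mice, and RNA was taken from frozen whole liver, so each value mixes hepatocytes with all other cells of the organ. Foxa3-Cre is active in the foregut endoderm, from which hepatocytes and bile duct cells derive. Where the Cre acted in these livers was not measured, and liver cells of other origin may keep Yap1. The background strain differs between the models, and so does the mouse line that gave the floxed Yap1 alleles. Each model was therefore set against its own littermates.

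Proteins that a cell secretes or places in membranes fold in the endoplasmic reticulum (ER), and the liver makes most of the proteins of blood plasma there. When unfolded proteins build up, the ER sensors IRE1, ATF6 and PERK start the unfolded protein response. IRE1 splices Xbp1 mRNA and ATF6 is cut to a free transcription factor, and both raise chaperones and degradation factors. PERK phosphorylates eIF2α, which slows translation in general but favours translation of ATF4, and ATF4 then induces genes of amino acid supply, redox balance and cell death. Other kinases that sense amino acid shortage, haem shortage or viral RNA act on the same eIF2α site, so the ATF4 arm can move without ER stress. Neither Xbp1 splicing nor the translation of Atf4 can be read from values per gene.

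The promoters of 5 of the 10 genes hold known response elements of these arms. They were read from sequence alone, though the motifs were chosen with earlier results of these data known. As the elements were already known for these arms, the matches are a description and no test. The elements do not sort the genes by arm: Dnajb9, Xbp1, Atf4, Ddit3 and Trib3 had no match, and Herpud1, of the chaperone arm, held one of each kind. In the 250 bases before the RefSeq start (GRCm38.p6) of all 10 genes, 5 short motifs were searched on both strands. The ER stress response element, CCAAT and CCACG with 9 free bases between them, was found before Hspa5 and in 0.113% of 32851 mouse promoters. Its variant form, ATTGG and CCACG with 1 free base between them, was found before Herpud1 and in 0.0304% of promoters. The core of the C/EBP-ATF response element, TGATGNAA, was found before Herpud1, Chac1, Asns and Fgf21, that is in 4 of 10 genes, against 3.45% of all promoters. The unfolded protein response element core TGACGTGG (0.563% of promoters) and the cAMP response element TGACGTCA (1.55%) were in none of the 10 windows. A match describes letters in the window and no binding was measured. A missing match holds only for these exact letters and these windows, which depend on the RefSeq start. For Herpud1, Xbp1 and Trib3, 0 of 6, 0 of 4 and 0 of 3 GENCODE transcripts held the 50 bases after that start. The Hspa5 and Asns matches, though before the RefSeq start, lie inside the GENCODE span of the gene. Each line gives 30 bases, 5′ to 3′ on the strand of the gene, with the match in capitals.
Hspa5, chr2:34772020-34772049, plus strand: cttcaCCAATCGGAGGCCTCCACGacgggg
Herpud1, ER stress element, chr8:94386368-94386397, plus strand: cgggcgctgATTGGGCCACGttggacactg
Herpud1, C/EBP-ATF core, chr8:94386306-94386335, plus strand: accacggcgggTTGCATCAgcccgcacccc
Chac1, chr2:119351038-119351067, plus strand: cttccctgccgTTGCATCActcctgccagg
Asns, chr6:7693214-7693243, minus strand: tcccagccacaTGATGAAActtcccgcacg
Fgf21, chr7:45615611-45615640, minus strand: agacccccccaTTGCATCAtccgtccaggc

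Herpud1 was the gene with an element of each kind, and its matches lay 52 to 42 and 112 to 105 bases before the start. The whole 250 bases before its start (chr8:94386179-94386428, GRCm38.p6, plus strand) are given with both matches in capitals.
Herpud1 promoter: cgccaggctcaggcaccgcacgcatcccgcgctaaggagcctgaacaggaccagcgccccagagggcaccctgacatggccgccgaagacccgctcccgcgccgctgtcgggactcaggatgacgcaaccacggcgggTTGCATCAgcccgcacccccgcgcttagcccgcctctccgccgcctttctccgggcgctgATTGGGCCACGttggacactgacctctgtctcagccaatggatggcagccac

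Values are deposited TPM, the share of all transcripts that a gene holds in a library, corrected for gene length and summing to the same total in every library, so levels of different genes can be compared and the read depth behind a value is unknown. For the tests, libraries were scaled against each other by a trimmed mean of log ratios and limma was run on log2(scaled TPM + 1) over the genes that reached 1 TPM in 3 or more of the libraries compared. Without scaling, the median log2 difference over all genes was 0.28 in YAP1 KO livers and 0.24 in YKTH livers, against -0.04 in both with scaling, so a gene with equal deposited TPM counts as lower in the models. The share of called genes that were higher was 51.3% in YAP1 KO and 50.2% in YKTH livers with scaling and 84.0% and 82.2% without. Yap1 ranged from 28.2 to 30.5 TPM in WT (C57BL/6) and from 1.67 to 3.72 in YAP1 KO livers, and from 31.0 to 33.2 in WT (mixed) and 8.63 to 11.5 in YKTH livers. Wwtr1, of which the YKTH mice are labelled as lacking 1 allele, was not lower in them: it stood at 8.38, 8.23 and 7.73 TPM in WT (mixed) and 14.1, 11.8 and 11.5 in YKTH livers (log2 0.26 on scaled TPM, adjusted p = 0.0744 in limma). In YAP1 KO livers Wwtr1 rose from 6.46 ± 0.324 to 14.5 ± 1.85 TPM (SD, n = 3). The rise of Wwtr1 was larger in YAP1 KO than in YKTH livers by 0.46 on the log2 scale (SE 0.14), which was not called (adjusted p = 0.802 in limma). Against WT the levels of Wwtr1 thus did not show the labelled loss of an allele, which values per gene do not test. YKTH denotes the mice labelled so throughout. The 8 hepatocyte markers, albumin among them, summed to between 102004 and 137108 TPM in every library, but moved in opposite directions within that sum. In YAP1 KO livers Alb (log2 -0.74) and Ttr (-1.13) fell and Trf rose (1.18), and in YKTH livers Ttr fell (-0.93) and Trf rose (1.14). Of 8 macrophage markers 7 rose in each model, where 18.8% and 19.2% of all genes did, with sums of 967 to 1410 TPM in YAP1 KO against 333 to 428 in WT (C57BL/6), and of 1276 to 1373 in YKTH against 301 to 617 in WT (mixed). Biliary markers summed to 36.7 to 67.0 TPM in WT, 336 to 759 in YAP1 KO and 109.7 to 231 in YKTH livers. Most of that sum was Spp1 (means of 450 TPM in YAP1 KO and 154 in YKTH livers). Sox9 also rose in both models (log2 2.10 and 1.69), while Epcam fell in YKTH livers (log2 -1.48). Epcam was under 1 TPM in all YKTH livers, so it entered that test through the WT (mixed) livers alone and had to differ. The sums of stellate cell and fibroblast markers were 116 to 156 TPM in WT, 337 to 436 in YAP1 KO and 292 to 373 in YKTH livers. Of these 7 markers 4 rose in each model, while Lrat fell in YAP1 KO livers (log2 -0.84). Neutrophil markers summed to 7.58 to 14.01 TPM in WT (C57BL/6) and 49.2 to 54.6 in YAP1 KO livers. They summed to 4.49 to 6.49 TPM in WT (mixed) livers and to 51.3, 10.7 and 16.7 in YKTH livers, LM225 being the highest. B and plasma cell markers, of which Ighm, Igkc and Tnfrsf17 were at 0 throughout, summed to 4.15 to 21.9 TPM in WT (C57BL/6) and 13.1 to 22.1 in YAP1 KO livers. Their sums were 6.45 to 7.91 TPM in WT (mixed) and 8.49 to 13.2 in YKTH livers. The part of these cells in the results was not tested. Fewer cells of a type and less RNA per cell cannot be told apart in whole tissue.

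In YAP1 KO livers 1 of the 10 genes passed the test (limma, Benjamini-Hochberg adjusted p under 0.05 over all genes), where 36.7% of the 11704 genes tested did. That gene was Asns, which rose, as did 18.8% of all genes, while 17.9% fell. In YKTH livers 3 of the 10 passed, where 38.2% of 11741 genes did: Asns rose, and Herpud1 and Atf4 fell, where 19.2% of all genes rose and 19% fell. At an unadjusted p under 0.05 the counts were 3 and 4 of 10. Asns reached 1 TPM in no WT library and entered both tests through the model livers alone, so it had to differ once tested. The median log2 change of the 10 genes was 0.06 in YAP1 KO and 0.00 in YKTH livers, beside -0.04 over all genes in both. By arm, the medians were -0.56 and -0.50 for the 4 chaperone genes and 0.72 and 0.29 for the 6 ATF4 genes. The ATF4 medians include Asns, which had to differ. The other ATF4 genes ran from -0.43 (Atf4) to 1.08 (Fgf21) in YAP1 KO livers, with Chac1 in the middle at 0.59. In YKTH livers they ran from -0.46 (Atf4) to 0.59 (Trib3), with Chac1 in the middle at 0.05. On unscaled TPM Hspa5, Dnajb9, Herpud1 and Xbp1 were at 0.43, -0.31, -0.57 and -0.11 in YAP1 KO livers. In YKTH livers these 4 were at 0.53, -0.64, -1.01 and 0.28.

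**Figure D1:**
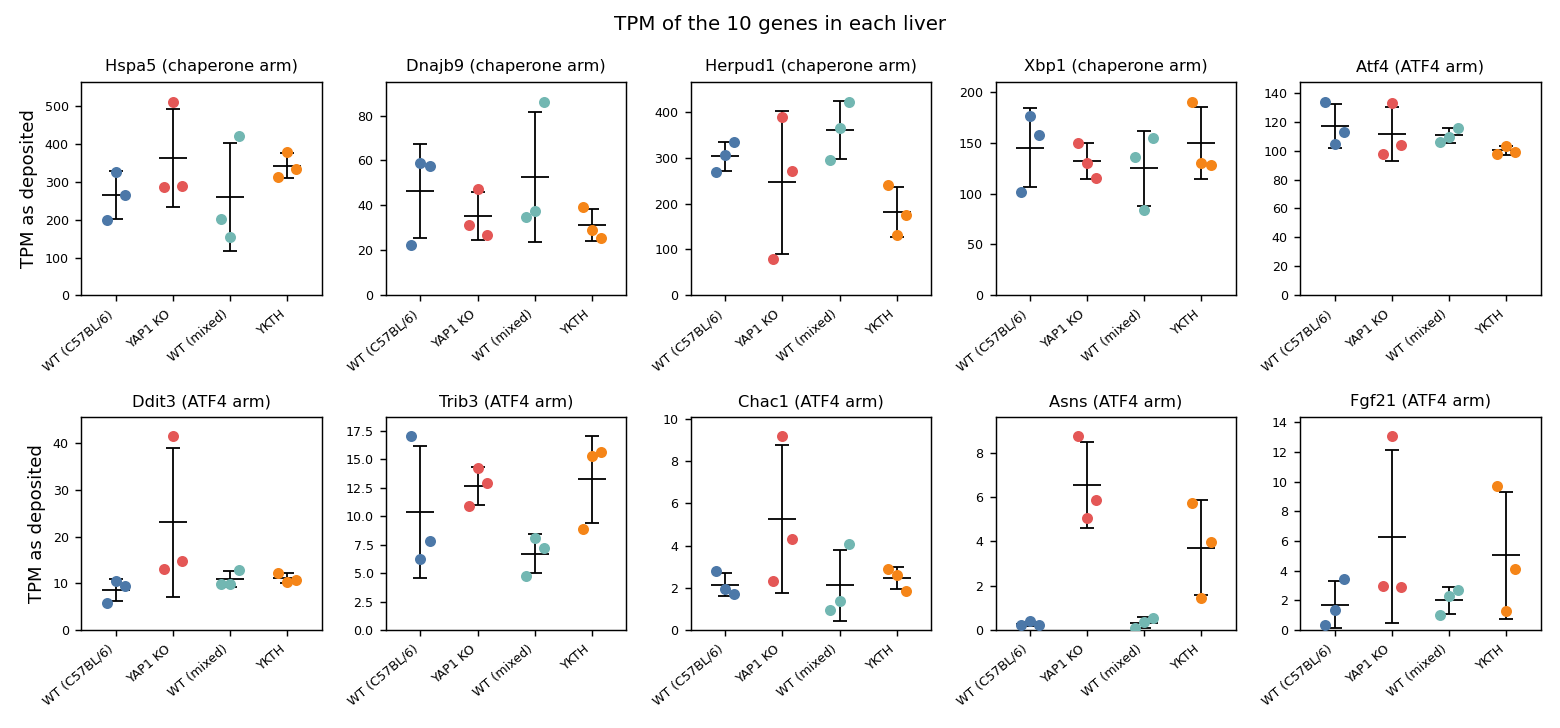
Deposited TPM (y axis, from 0, its own scale for each gene) of the 10 genes in each of the 12 livers (points), with the group mean and SD (bars). Asns lies between 0.0966 and 0.552 TPM in all WT livers and between 1.46 and 8.73 in all model livers, while for Hspa5, Dnajb9, Xbp1, Chac1 and Fgf21 the deposited values of each model overlap those of its WT group.

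Among the chaperone genes, Hspa5 (ENSMUSG00000026864, chr2:34771970-34777547, GRCm38, GENCODE annotation) encodes BiP, the main chaperone of the ER lumen, which also holds the sensors inactive. Hspa5 stood at 200, 327 and 267 TPM in WT (C57BL/6) and 286, 512 and 291 in YAP1 KO livers. It stood at 203, 155 and 421 TPM in WT (mixed) and 314, 380 and 335 in YKTH livers. The groups overlapped in both models, and 1 WT (mixed) mouse, LM230, was above every YKTH liver. The log2 fold change of Hspa5 was 0.07 (95% interval -0.54 to 0.68) in YAP1 KO and 0.21 (-0.57 to 0.98) in YKTH livers, with adjusted p = 0.859 and 0.659 in limma. Without mouse LM230 the YKTH value was 0.65 (adjusted p = 0.0186).

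Dnajb9 (ENSMUSG00000014905, chr12:44205559-44210326) encodes ERdj4, a BiP co-chaperone induced through XBP1. Dnajb9 stood at 22.5, 59.1 and 57.7 TPM in WT (C57BL/6) and 31.5, 47.4 and 26.9 in YAP1 KO livers. It stood at 34.8, 37.5 and 86.1 TPM in WT (mixed) and 39.1, 28.9 and 25.6 in YKTH livers. The model livers lay inside the WT range in the first comparison, and 2 of 3 YKTH livers lay below all WT (mixed) livers in the second and all 3 did after scaling. The log2 fold change of Dnajb9 was -0.65 (SE 0.36, adjusted p = 0.191) in YAP1 KO and -0.95 (SE 0.34, adjusted p = 0.0545) in YKTH livers by limma. The call depended on single mice: without WT (C57BL/6) mouse LM75, the lowest of its group, the YAP1 KO value was -1.08 (adjusted p = 0.013). In YKTH livers Dnajb9 passed without LM226 (-1.23, adjusted p = 0.032) or without LM230 (-0.51, adjusted p = 0.0458). On unscaled TPM it passed in neither model, at -0.31 in YAP1 KO and -0.64 in YKTH livers (adjusted p = 0.521 and 0.139).

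Herpud1 (ENSMUSG00000031770, chr8:94386438-94395377) encodes a membrane protein of ER-associated degradation, the route by which misfolded proteins leave the ER for the proteasome. Herpud1 stood at 296, 364 and 422 TPM in WT (mixed) livers and 240, 131 and 175 in YKTH livers. The YKTH livers were all below the WT livers in deposited TPM, as were 10% of all genes, and after scaling, as were 27.6%. The fall was to 0.397-fold (log2 -1.33, SE 0.22, adjusted p = 0.00245 in limma). In WT (C57BL/6) livers Herpud1 stood at 269, 305 and 333 TPM, and in YAP1 KO livers at 79.3, 389 and 270. Mouse LM74 was far below all others and LM189 above all WT livers, so the log2 fold change of -0.92 had an SE of 0.53 (adjusted p = 0.211). It was -0.20 without LM74 and -1.42 without LM189, and passed the threshold in neither case (adjusted p = 0.429 and 0.0644).

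Xbp1 (ENSMUSG00000020484, chr11:5520659-5525893) encodes the transcription factor that IRE1 activates by splicing its mRNA. Xbp1 stood at 102, 176 and 158 TPM in WT (C57BL/6) and 150, 131 and 115 in YAP1 KO livers. It stood at 136, 83.6 and 155 TPM in WT (mixed) and 190, 131 and 128 in YKTH livers. Every YAP1 KO liver lay inside the WT range. The log2 fold change of Xbp1 was -0.47 (SE 0.18, adjusted p = 0.0747 in limma) in YAP1 KO livers and -0.04 (SE 0.23, adjusted p = 0.907) in YKTH livers, and the latter was 0.28 on unscaled TPM. Without WT mouse LM75 the YAP1 KO value was -0.67 (adjusted p = 0.00474), and without WT mouse LM192 it was -0.33 (adjusted p = 0.223). On unscaled TPM the YAP1 KO value was -0.11 (adjusted p = 0.681), and under quantile normalization -0.24 (adjusted p = 0.369).

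Of the ATF4 arm, Atf4 itself (ENSMUSG00000042406, chr15:80255184-80257541) encodes the transcription factor, whose protein level is set largely by translation. Atf4 stood at 106, 110 and 116 TPM in WT (mixed) and 97.7, 103 and 99.1 in YKTH livers. These were the tightest groups of any of the 10 genes, with coefficients of variation of 4.47% and 2.98%, and all YKTH livers were below all WT livers, as they were for 10% of all genes in deposited TPM and 27.6% after scaling. Atf4 fell to 0.727-fold in YKTH livers on scaled TPM (log2 -0.46, SE 0.11, adjusted p = 0.0117 in limma). The call needed the scaling: on unscaled TPM the log2 change was -0.14 (adjusted p = 0.245), and under quantile normalization -0.23 (adjusted p = 0.0664). In WT (C57BL/6) livers Atf4 stood at 134, 104 and 113 TPM and in YAP1 KO livers at 97.6, 133 and 104. These groups overlapped, with a log2 fold change of -0.43 (SE 0.18, adjusted p = 0.0906). It passed without mouse LM189 (-0.60, adjusted p = 0.03) and with all 12 libraries in 1 fit (-0.44, adjusted p = 0.0379). It was -0.075 on unscaled TPM (adjusted p = 0.692), -0.22 under quantile normalization (adjusted p = 0.249) and -0.29 without LM74 (adjusted p = 0.234).

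Ddit3 (ENSMUSG00000025408, chr10:127290774-127296288) encodes CHOP, the pro-apoptotic transcription factor downstream of ATF4. Ddit3 stood at 5.90, 10.5 and 9.42 TPM in WT (C57BL/6) livers and 13, 41.4 and 14.8 in YAP1 KO livers. All YAP1 KO livers were above all WT livers in deposited TPM, where 47.5% of all genes tested were, but not after scaling. The log2 fold change was 0.84 (SE 0.42, adjusted p = 0.151 in limma), 1.17 on unscaled TPM (adjusted p = 0.0438) and 0.31 without LM189 (adjusted p = 0.344). In WT (mixed) and YKTH livers Ddit3 was nearly level, at 9.82, 9.97 and 12.8 TPM against 12.3, 10.3 and 10.7. There the log2 fold change was -0.26 (95% interval -0.59 to 0.07) and turned to 0.04 on unscaled TPM. Ddit3 overlaps Mars, the methionyl-tRNA synthetase gene, by 68 bases on the opposite strand. Mars reached 38.6 TPM, and whether the counting used strand is not given in the sources used here.

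Trib3 (ENSMUSG00000032715, chr2:152337422-152344032) encodes a pseudokinase that CHOP and ATF4 induce and that dampens ATF4. Trib3 stood at 4.78, 8.07 and 7.22 TPM in WT (mixed) livers and 8.85, 15.3 and 15.7 in YKTH livers. The YKTH livers were all above the WT livers in deposited TPM, where 44.4% of all genes tested were, and overlapped them after scaling. The log2 fold change was 0.59 (SE 0.27, adjusted p = 0.124 in limma), 0.88 on unscaled TPM (adjusted p = 0.0193) and 0.86 without mouse LM225 (adjusted p = 0.0186). Without WT mouse LM226 it was 0.36 (adjusted p = 0.341). In WT (C57BL/6) livers Trib3 stood at 17.0, 6.28 and 7.82 TPM and in YAP1 KO livers at 10.9, 14.2 and 12.9. The highest value of all 12 was thus a WT liver, LM75, and the log2 fold change was 0.05 (95% interval -0.72 to 0.82).

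Chac1 (ENSMUSG00000027313, chr2:119351229-119354381) encodes an enzyme that breaks down glutathione. Chac1 stood at 2.79, 1.94 and 1.73 TPM in WT (C57BL/6) and 2.33, 9.15 and 4.29 in YAP1 KO livers. Of the 3 YAP1 KO livers 2 were above all WT livers, and the lowest, LM74, was inside their range. The log2 fold change of Chac1 was 0.59 (SE 0.38, adjusted p = 0.264 in limma), and 0.99 without LM74 (adjusted p = 0.0445). Without LM189, the highest liver, it was 0.15 (adjusted p = 0.709). In WT (mixed) livers Chac1 stood at 0.938, 1.36 and 4.06 TPM and in YKTH livers at 2.90, 2.63 and 1.87, inside the WT range. That log2 fold change was 0.05 (95% interval -0.76 to 0.86).

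Asns (ENSMUSG00000029752, chr6:7675169-7693254) encodes asparagine synthetase, which makes asparagine from aspartate and glutamine. Asns stood at 0.233, 0.390 and 0.231 TPM in WT (C57BL/6) livers and 8.73, 5.04 and 5.88 in YAP1 KO livers. It stood at 0.0966, 0.382 and 0.552 TPM in WT (mixed) livers and 5.71, 1.46 and 3.96 in YKTH livers. Every model liver was above every WT liver, also after scaling, where 24.9% of all genes in YAP1 KO and 24.5% in YKTH livers were, and the lowest YKTH liver, LM250, was below every YAP1 KO liver. The ratio of mean TPM was 23.0 in YAP1 KO and 10.8 in YKTH livers. On the log2(scaled TPM + 1) scale, which understates the change of a low gene, the differences were 2.33 (SE 0.17, adjusted p = 5.55e-05 in limma) and 1.54 (SE 0.33, adjusted p = 0.00741). The Asns match shown above lay 23 to 16 bases before its RefSeq start.

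Fgf21 (ENSMUSG00000030827, chr7:45613886-45615490) encodes a hormone that the liver secretes in fasting and under amino acid shortage, and it is a target of PPARA as well as of ATF4. Fgf21 stood at 0.360, 1.34 and 3.45 TPM in WT (C57BL/6) and 2.94, 13.1 and 2.91 in YAP1 KO livers. It stood at 0.994, 2.33 and 2.73 TPM in WT (mixed) and 9.70, 1.26 and 4.15 in YKTH livers. The groups overlapped in both models, and Fgf21 had coefficients of variation of 92.1% in WT (C57BL/6), 92.8% in YAP1 KO, 45.04% in WT (mixed) and 85.2% in YKTH livers. The mean was 3.67-fold higher in YAP1 KO and 2.495-fold higher in YKTH livers, and neither passed limma (log2 1.08, adjusted p = 0.187, and 0.54, adjusted p = 0.423). Single mice moved both values: they ran from 0.44 (without LM189) to 1.55 (without LM193) in YAP1 KO and from 0.03 (without LM225) to 1.08 (without LM250) in YKTH livers, and passed in none of these.

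**Figure D2:**
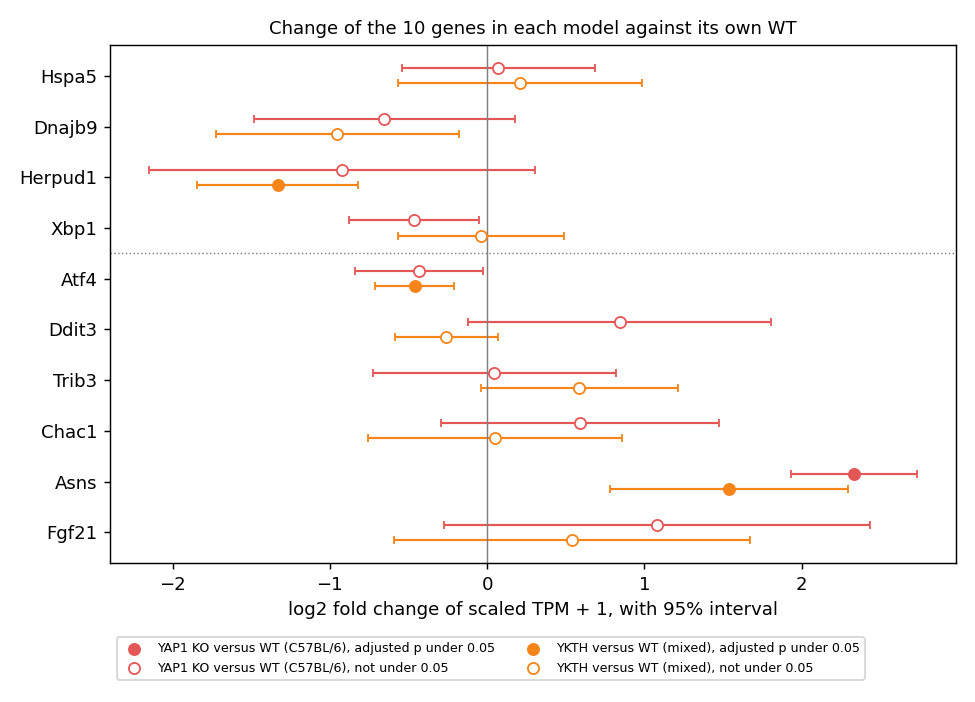
Log2 fold change (x axis) with its 95% interval for each of the 10 genes (y axis, chaperone arm above the dotted line) in YAP1 KO against WT (C57BL/6) (red) and YKTH against WT (mixed) (orange); filled points had a limma adjusted p under 0.05. Asns is filled in both models, at 2.33 and 1.54, and Herpud1 (-1.33) and Atf4 (-0.46) in YKTH livers.

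In WT (C57BL/6) livers the order of the mean levels ran from Herpud1 (302 TPM) and Hspa5 (264) through Xbp1 (145), Atf4 (117) and Dnajb9 (46.4) to Trib3 (10.4), Ddit3 (8.60), Chac1 (2.15), Fgf21 (1.72) and Asns (0.285). Neighbours whose livers overlapped were Herpud1 with Hspa5, Xbp1 with Atf4, Trib3 with Ddit3, Chac1 with Fgf21, and Fgf21 with Asns. WT (mixed) livers had the same order except that Ddit3 (10.9) stood above Trib3 (6.69). In YAP1 KO livers Hspa5 (363) stood above Herpud1 (246), Ddit3 (23.1) above Trib3 (12.7), and Asns (6.55) above Fgf21 (6.30) and Chac1 (5.26). In YKTH livers Hspa5 (343) likewise stood above Herpud1 (182), and Asns (3.71) stood between Fgf21 (5.04) and Chac1 (2.46).

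The mean of the 4 chaperone genes minus the mean of the 6 ATF4 genes, on the log2(scaled TPM + 1) scale, gives the distance between the arms in each liver. It was 4.04, 4.81 and 4.58 in WT (C57BL/6) and 3.15, 3.20 and 3.36 in YAP1 KO livers. It was 4.59, 4.10 and 4.74 in WT (mixed) and 3.62, 3.76 and 3.47 in YKTH livers. All model livers lay below all WT livers on this scale. Without Asns the values were 3.52, 4.35 and 4.05 in WT (C57BL/6) against 3.11, 2.85 and 3.20 in YAP1 KO. They were then 4.12, 3.62 and 4.23 in WT (mixed) and 3.44, 3.41 and 3.25 in YKTH livers. On this scale the livers of each model did not overlap those of their own WT group without Asns either. The difference is a description of a chosen list and no test was made of it. It was taken on scaled TPM only, so its dependence on the scaling was not tested, and no share over all genes stands beside it.

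**Figure D3:**
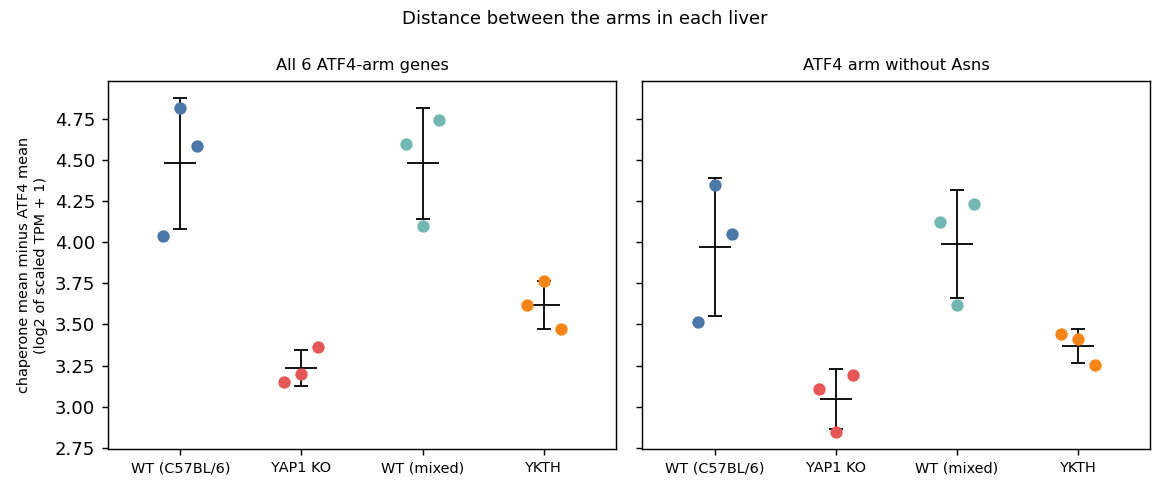
Mean log2(scaled TPM + 1) of the 4 chaperone genes minus that of the ATF4 genes (y axis) in each liver (points) by group, with group mean and SD (bars), with all 6 ATF4 genes (left) and without Asns (right); the y axis does not start at 0. Model livers lie at 3.15 to 3.76 on the left, below the lowest WT liver at 4.04.

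The genes were also compared between the models, as the change in YAP1 KO minus the change in YKTH livers. None of the 10 passed, where 0.0576% of 12159 genes did, and 1 did at an unadjusted p under 0.05. That was Ddit3, with a difference of 1.09 (SE 0.50, 95% interval 0.01 to 2.17, adjusted p = 0.999 in limma). The next was Asns, at 0.81 (95% interval -0.08 to 1.69). The intervals of Herpud1 (-1.03 to 1.83) and Fgf21 (-1.36 to 2.44) were wide enough to hold a difference of either sign. Between the WT groups, 9 of the 10 genes could be tested and none passed, where 0.216% of 11126 genes did. None had an unadjusted p under 0.05, and the log2 differences ran from -0.53 (Trib3) to 0.28 (Ddit3).

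Within groups, single mice stood highest or lowest for many of the 10 genes. In YAP1 KO livers mouse LM189 was highest for 8 of the 10, all but Xbp1 and Asns, and LM74 was lowest for 6. In WT (mixed) livers LM230 was highest for 9 of 10 and LM226 lowest for 8. In YKTH livers LM225 was highest for 7, and in WT (C57BL/6) livers LM75 was lowest for 6. Immediate-early genes, which respond within minutes to stress, handling or injury, were also highest in LM189, LM230 and LM225 of their groups. In WT (C57BL/6) livers this was not so: LM75, lowest for 6 of the genes, had a sum of 118.6 TPM, and LM192, highest for 5, had the lowest sum. Their summed level (8 genes) was 355 TPM in LM74, 2789 in LM189 and 1434 in LM191, against 99.0 to 119 in WT (C57BL/6) livers. It was 170 TPM in LM230, 103 in LM226 and 86.6 in LM227 of the WT (mixed) livers, and 314 in LM225 against 226 and 237 in the other YKTH livers. Of the 8, 7 passed in YAP1 KO livers and 4 of 7 tested in YKTH livers, all higher, where 18.8% and 19.2% of all genes were. Fosb, among those that passed in YAP1 KO livers, was under 1 TPM in all WT (C57BL/6) livers. It entered that test through the YAP1 KO livers alone and had to differ. The part of these mice's immediate-early genes in the levels of the 10 genes was not tested.

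**Figure D4:**
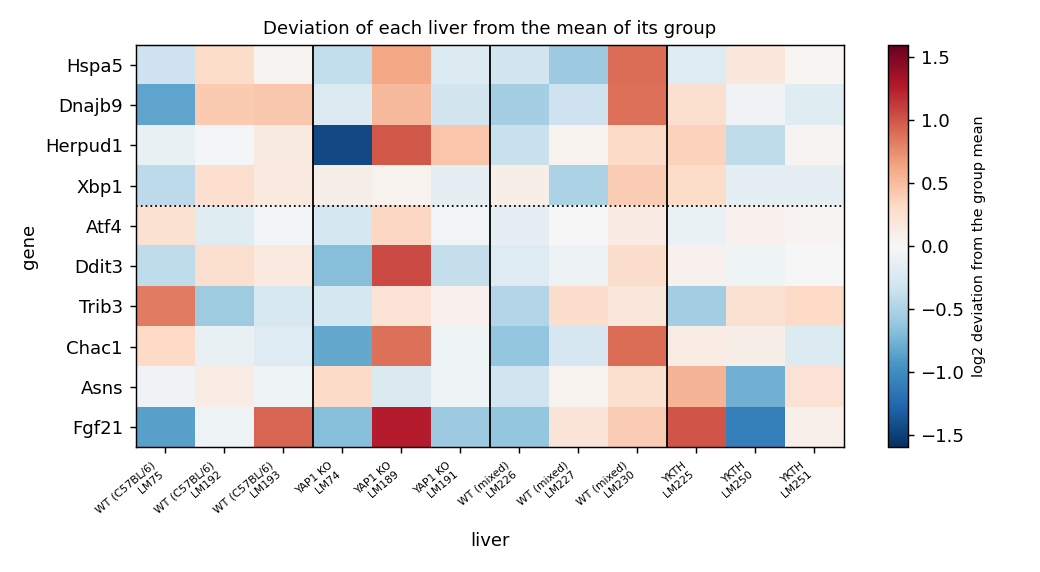
Deviation of each liver (columns, with mouse number) from the mean of its group on the log2(scaled TPM + 1) scale (colour) for the 10 genes (rows; chaperone arm above the dotted line). The YAP1 KO mouse LM189 is above its group mean for 9 genes, all but Asns, and the WT (mixed) mouse LM230 for all 10.

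Correlations of these deviations over the 12 libraries are given as a description, since the 3 libraries of a group share a mean and a few mice carry much of the spread. Hspa5 and Dnajb9 deviated together most closely (Pearson r = 0.818), followed by Atf4 with Chac1 (0.809), Atf4 with Trib3 (0.794) and Dnajb9 with Xbp1 (0.765). The median r was 0.531 over the 6 pairs within the chaperone arm, 0.421 over the 15 pairs within the ATF4 arm and 0.380 over the 24 pairs between the arms. Of all 45 pairs 35 were positive, and 9 of the 15 within the ATF4 arm. Asns was negative with Atf4 (-0.326), Trib3 (-0.280), Ddit3 (-0.0985), Hspa5 (-0.0908) and Chac1 (-0.0564), and the lowest pair was Xbp1 with Trib3, at -0.702. The genes of like pattern given next are the 2 highest of 8481 or 8482 compared over 12 libraries. Their r is thus high in part by selection. Among all genes of at least 5 TPM on average, those that deviated most like Hspa5 were Hyou1 (r = 0.969) and Canx (0.943), both ER chaperones. For Dnajb9 they were Preb (0.971) and Ufl1 (0.960), for Herpud1 Lpin1 (0.978) and Fos (0.966), and for Xbp1 Zc3h7a (0.961) and AW209491 (0.938). In the ATF4 arm they were C8g (0.968) and Naxd (0.941) for Atf4, Sra1 (0.950) and Ifi27 (0.938) for Ddit3, and Rfc3 (0.982) and Bola3 (0.971) for Trib3. For Chac1 they were Zfp444 (0.938) and Hcfc1r1 (0.928), for Asns Nde1 (0.935) and Rwdd4a (0.897), and for Fgf21 C1galt1c1 (0.933) and Cln8 (0.904).

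The wider pathway was read from lists that hold the other genes of each step. The counts below are to be set beside the shares of all genes tested: 18.8% rose and 17.9% fell in YAP1 KO livers, and 19.2% rose and 19% fell in YKTH livers. On unscaled TPM 37.5% rose and 7.13% fell in YAP1 KO livers, and 34.8% rose and 7.55% fell in YKTH livers. Among 17 sensors and signalling genes of the unfolded protein response, 2 rose and 3 fell in each model, and on unscaled TPM 12 and 11 rose while 1 fell. Creb3l1, an ER-bound transcription factor, rose from 0.924 ± 0.548 to 4.42 ± 0.305 TPM (SD, n = 3 in each group) in YAP1 KO livers and from 0.831 ± 0.215 to 3.45 ± 0.891 in YKTH livers. All WT (mixed) livers were under 1 TPM, so Creb3l1 entered the YKTH test through the YKTH livers alone and had to differ. Ppp1r15b, the constitutive subunit of the phosphatase that reverses eIF2α phosphorylation, fell in both (log2 -0.91 and -1.09). Its inducible partner Ppp1r15a, an ATF4 and CHOP target, rose in YAP1 KO livers (log2 1.31, adjusted p = 0.0222 in limma), with 6.92, 7.04 and 10.8 TPM in WT (C57BL/6) and 16.8, 45.9 and 26.3 in YAP1 KO livers. Eif2ak3, the gene of PERK, rose in YKTH livers (log2 0.70, adjusted p = 0.0428). With 1 mouse fewer both could miss the threshold at a like size. Ppp1r15a was at 1.199 to 1.31 (adjusted p = 0.0585 to 0.0716) without LM75, LM192 or LM191, and Eif2ak3 at 0.48 to 0.68 (adjusted p = 0.104 to 0.132) without LM226, LM227, LM250 or LM251. Ppp1r15a was at 0.91 without LM189 and remained called. Eif2ak3 was also not called with no filter on low values or under quantile normalization (adjusted p = 0.0802 and 0.0517 in limma). Whether Ppp1r15a and Eif2ak3 differed between the models was tested too, and neither passed (adjusted p = 0.999).

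Of 23 ER chaperones and folding enzymes, 2 rose and 4 fell in YAP1 KO and 2 rose and 1 fell in YKTH livers; on unscaled TPM 9 and 10 rose and none fell. Dnajc10, a disulfide reductase that works with BiP, rose from 13.3 ± 0.709 to 26.8 ± 6.71 TPM and from 13.5 ± 2.27 to 30.1 ± 2.34. Erp44 and Txndc5, which also act on disulfide bonds, fell in YAP1 KO livers (log2 -0.41 and -0.43) on scaled TPM but not on unscaled TPM. With LM192 or LM193 left out both missed the threshold at nearly the same size (Erp44 at -0.41 and -0.40, Txndc5 at -0.39 and -0.37, adjusted p = 0.0583 to 0.0733), as did Txndc5 without LM189 or LM191. Of 19 genes of ER-associated degradation, 2 rose and 3 fell in YAP1 KO and 1 rose and 1 fell in YKTH livers, against 7 and 5 higher and 1 and 0 lower on unscaled TPM. Edem2, which trims mannose from misfolded glycoproteins, rose in both (log2 0.72 and 0.78), in YAP1 KO livers just missing the threshold without LM192, LM193 or LM189 (log2 0.65 to 0.69, adjusted p = 0.0501 to 0.0548). Derl3, a channel component of the same route as Herpud1, fell in YAP1 KO livers from 7 ± 1.57 to 1.98 ± 0.698 TPM (adjusted p = 0.000746 in limma), and Selenos fell by 0.41 on the log2 scale there, though not on unscaled TPM or without LM189 (log2 -0.39, adjusted p = 0.0555). Of 16 genes of translocation into the ER, 5 fell in YAP1 KO livers and 1 in YKTH livers, with Ssr2 (-0.50) and Srp54a (-0.43) in the former; on unscaled TPM 6 rose in each and none fell. Srp54a was not called without LM192 or LM191 (log2 -0.39 and -0.40, adjusted p = 0.0632 and 0.056).

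The targets of ATF4 were split by function. Of 12 amino acid and one-carbon enzymes 8 could be tested, and 2 rose and 1 fell in YAP1 KO while 3 rose and 2 fell in YKTH livers (5 and 5 higher, 0 and 1 lower, on unscaled TPM). Aldh18a1, of proline synthesis, rose from 0.569 ± 0.132 to 2.94 ± 0.733 TPM and from 0.752 ± 0.205 to 3.76 ± 0.522. Mthfd2, of mitochondrial folate metabolism, rose from 0.484 ± 0.0875 to 2.35 ± 0.0969 TPM and from 0.462 ± 0.125 to 1.92 ± 0.188. Like Asns, both entered the tests through the model livers. In YKTH livers Pck2, the mitochondrial PEP carboxykinase, rose (log2 0.90) and Shmt2 fell (-0.42), the latter not on unscaled TPM or without LM227 (log2 -0.35, adjusted p = 0.0577). Psat1 and Phgdh, of serine synthesis, did not reach the level needed for a test.

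Of 9 amino acid transporters 6 could be tested. Slc1a4, a carrier of neutral amino acids, rose from 2.11 ± 0.0661 to 10.1 ± 0.929 TPM in YAP1 KO livers and from 1.90 ± 0.416 to 10.03 ± 1.59 in YKTH livers (adjusted p = 5.7e-05 and 7.47e-05 in limma). It was the single transporter called in YAP1 KO livers, while in YKTH livers 2 rose, Slc1a5 among them (log2 0.70), and 2 fell, Slc38a2 among them (-1.12). On unscaled TPM 3 and 2 rose and 0 and 1 fell. Of 13 aminoacyl-tRNA synthetases, which load tRNAs with amino acids, 2 rose in YAP1 KO and 2 rose and 1 fell in YKTH livers, against 9 and 4 higher and none lower on unscaled TPM. Gars rose in both (0.53 and 0.40), in YKTH livers not without LM226, LM227, LM250 or LM251 (log2 0.32 to 0.39, adjusted p = 0.0919 to 0.130). Vars rose in YAP1 KO livers (1.12, from 15.8 ± 1.24 to 45.8 ± 7.70 TPM), and Aars fell in YKTH livers (-0.43), not on unscaled TPM.

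Of 18 transcription factors and stress effectors 17 could be tested, and 6 rose and 1 fell in YAP1 KO while 5 rose and 2 fell in YKTH livers. On unscaled TPM 8 and 7 rose and 0 and 1 fell. Atf3, a stress-induced transcription factor, stood at 2.33, 1.62 and 2.16 TPM in WT (C57BL/6) and at 20.5, 175 and 45.3 in YAP1 KO livers. In WT (mixed) livers Atf3 stood at 3.40, 1.68 and 2.99 TPM and in YKTH livers at 14.4, 10.6 and 9.52. The models were above their WT livers without overlap, as 47.5% and 44.4% of all genes were in deposited TPM, and LM189 was again highest. Ddit4, an inhibitor of mTORC1, rose in both (log2 1.85 and 0.81), and the cell death genes Tnfrsf10b (1.77 and 1.44) and Pmaip1 (1.02 and 1.27) were higher in both. Tnfrsf10b was under 1 TPM in all WT livers and Pmaip1 in all but LM226, so both entered the tests through the model livers, and Tnfrsf10b in both models and Pmaip1 in YAP1 KO livers had to differ. Ddit4 in YAP1 KO livers was not called without LM192, LM193, LM189 or LM191 (adjusted p = 0.0622 to 0.125), at 1.14 without LM189 and 1.59 to 1.93 without the others. Nor was it called there with no filter on low values or with robust variance shrinkage (adjusted p = 0.0822 and 0.110 in limma). In YKTH livers Ddit4 was not called with all 12 libraries in 1 fit (log2 0.81, adjusted p = 0.207). Gdf15, a stress hormone, stood at 5.67, 6.47 and 8.62 TPM in WT (C57BL/6) and 21.0, 361 and 93.1 in YAP1 KO livers (log2 3.20, adjusted p = 0.0215 in limma), with LM189 highest. Gdf15 was at 2.17 without LM189 and 4.27 without LM74, called in both, and at 3.11 to 3.16, not called, without LM75, LM192 or LM191 (adjusted p = 0.0536 to 0.0605). With robust variance shrinkage Gdf15 was not called in YAP1 KO livers either (adjusted p = 0.0752 in limma). In YKTH livers Gdf15 stood at 10.4, 8.31 and 7.70 TPM against 7.72, 8.64 and 9.08, and the difference between the models was not called (3.45, adjusted p = 0.766). Gadd45a fell in YKTH livers (-1.58). With all 12 libraries in 1 fit, neither Gadd45a (log2 -1.57, adjusted p = 0.0573 in limma) nor Atf3 (1.51, adjusted p = 0.0509) was called in YKTH livers.

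**Figure D5:**
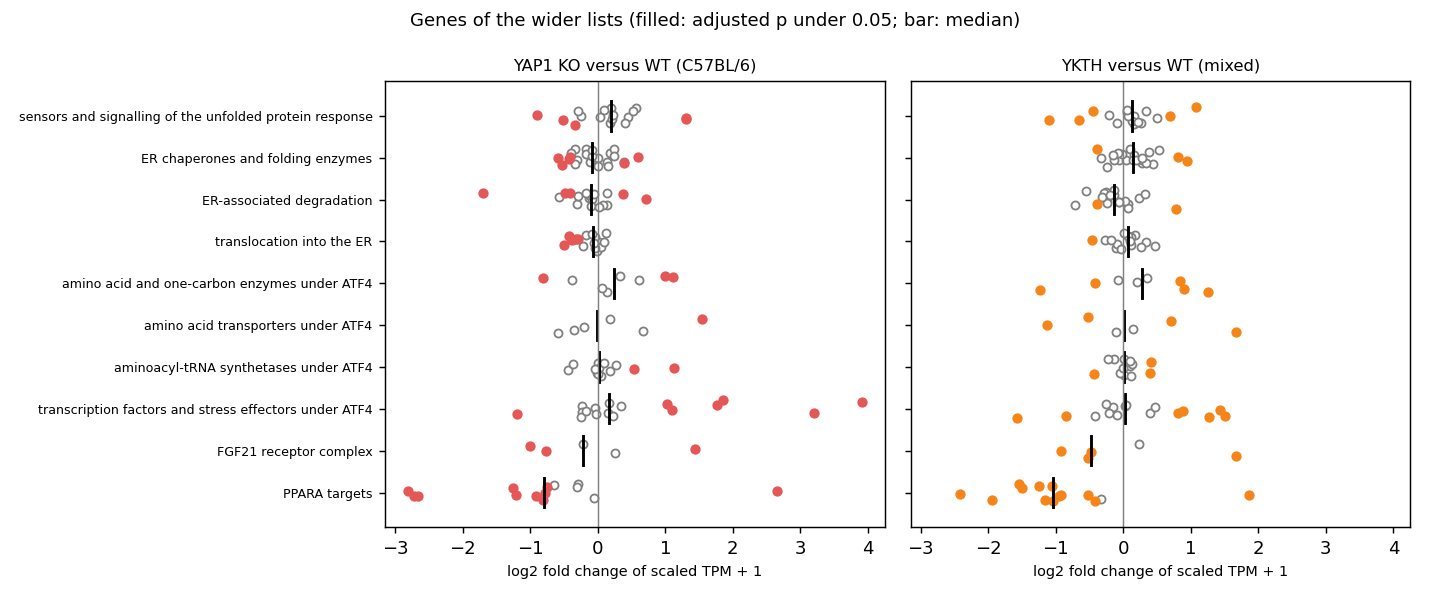
Log2 fold change of scaled TPM + 1 (x axis) of each tested gene (points) in 10 lists of the wider response (rows), in YAP1 KO (left) and YKTH livers (right); filled points had a limma adjusted p under 0.05, bars are list medians, and the vertical position within a row is arbitrary. Called genes lie on both sides of 0 in most lists, and the PPARA targets have medians of -0.80 and -1.05.

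Around Fgf21, the receptor Fgfr1 rose in both models (log2 1.44 and 1.66) and Fgfr3 fell (-1.01 and -0.93), and Fgfr2 fell in YKTH livers (-0.48), the last not on unscaled TPM or without any 1 of 5 mice (LM226, LM227, LM230, LM225 and LM251, at log2 -0.56 to -0.33 and adjusted p = 0.0534 to 0.139). Of the 5 genes of the receptor complex, 1 rose and 2 fell in YAP1 KO and 1 rose and 3 fell in YKTH livers, against 2 higher and 1 lower in each on unscaled TPM. The 14 PPARA targets, most of them genes of fatty acid oxidation, were mainly lower: 9 fell in YAP1 KO and 12 in YKTH livers, where 17.9% and 19% of all genes fell, while 1 rose, Pdk4. On unscaled TPM 7 and 8 fell, where 7.13% and 7.55% of all genes did, and Pdk4 rose. Cyp4a10, a fatty acid hydroxylase, fell from 496 ± 158 to 93.0 ± 9.83 TPM and from 582 ± 175 to 184 ± 39.2. Acot1 also fell in both (log2 -2.81 and -2.42), and Acaa1b (-1.15) and Plin2 (-0.52) in YKTH livers, the last not on unscaled TPM or without LM227, LM230 or LM251 (log2 -0.47 to -0.43, adjusted p = 0.0646 to 0.0822). Fgf21, which shares PPARA as an activator, did not pass in either direction.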

How the data were processed

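Total RNA from frozen liver of 12 mice was sequenced as paired-end reads, which the authors aligned with CLC Genomics Workbench (mouse build GRCm38.p6), and TPM per gene and mouse were deposited. The authors' comparison columns (fold changes, log fold changes, p-values, false discovery rates, Bonferroni values and maximum group means, made with edgeR) were not used. All TPM columns belonged to a sample (0 unmapped), and no pair of libraries was identical. The files held no counts, so the authors' edgeR test was not repeated. Instead limma 3.58.1 in R 4.3.3 (trend, two-sided, Benjamini-Hochberg, threshold 0.05) was run on log2(scaled TPM + 1), with libraries scaled by a trimmed mean of log ratios (30% and 5% trimmed), after a filter of 1 TPM in 3 libraries, and checked on simulated data. Groups came from the sample titles. The 10 genes, all lists and motifs were chosen with earlier results of these data known. Of each list, up to 4 genes called in both models without overlap of the groups were named, by the mean change, and up to 2 called in 1 model, by p. Genes of like pattern were the 2 with the highest correlation of deviations. Promoters were RefSeq (all 10 matched by symbol) and gene positions GENCODE. Pseudocount, filter, scaling, shrinkage, shared fit and each mouse left out were varied. A gene that the naming rule picked from the PPARA targets is not reported here.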

Additional observations from a re-analysis of the deposited data

Results flagged for a closer look

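Yap1 fell further in YAP1 KO than in YKTH livers: the change in YAP1 KO minus the change in YKTH livers was -1.59 on the log2 scale (adjusted p = 0.0371 in limma, 3 mice a group). It is given because the difference between the models was itself tested. It kept its sign but not its call, with adjusted p = 0.0799 at a pseudocount of 0.1, 0.129 with no filter and 0.0603 on unscaled TPM. It passed without LM74 or LM225, and not without any of the other mice, at a like size (-1.63 to -1.45, adjusted p = 0.0663 to 0.146). The models also differ in background strain and in the line of the floxed Yap1 alleles. The part of either in this Yap1 difference was not tested. Among the 10 genes no such difference was called, and no test of single outlying mice was made in these groups of 3.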

How the results depend on the processing

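No paired analysis was possible because the mouse numbers are not shared between the groups compared. The count of the 10 genes called in YAP1 KO livers, 1, became 2 on unscaled TPM (Ddit3 added) and 2 with all 12 libraries in 1 fit (Atf4 added), and lay between 1 and 3 when single mice were omitted. In YKTH livers it was 3, 2 at a minimum of 5 TPM and under quantile normalization, and 3 to 5 when single mice were omitted. In the comparisons of the models and of the WT groups it was 0 in every setting run. Asns kept its call wherever it was tested, and at a minimum of 5 TPM it was not tested in YKTH livers. For the named genes outside the 10, not every setting in which a call was lost is given above. The sign of some uncalled values turned: under quantile normalization Trib3 was at -0.0037 in YAP1 KO, and Xbp1 at 0.23 and Chac1 at -0.21 in YKTH livers, and on unscaled TPM Xbp1 was at 0.28 and Ddit3 at 0.035 in YKTH livers. When single mice were omitted, the log2 change ran from -0.24 to 0.27 for Hspa5 and from -0.24 to 0.46 for Trib3 in YAP1 KO livers. In YKTH livers it ran from -0.084 to 0.65 for Hspa5, from -0.29 to 0.17 for Xbp1 and from -0.27 to 0.50 for Chac1. The difference between the models ran from -0.59 to 0.14 for Hspa5, -0.15 to 0.56 for Dnajb9, -0.10 to 1.13 for Herpud1, -0.14 to 0.17 for Atf4 and -0.090 to 1.04 for Fgf21. Between the WT groups the range was -0.63 to 0.10 for Hspa5, -0.32 to 0.39 for Dnajb9, -0.60 to 0.13 for Chac1 and -0.17 to 0.69 for Fgf21. The cause was not tested. With 3 mice a group, an unknown read depth and TPM that sum to a constant, small changes have no direction independent of the scaling. Without scaling the median log2 change over all genes moved from -0.04 to 0.28 in YAP1 KO livers and from -0.04 to 0.24 in YKTH livers. Ddit3 in YKTH livers, at -0.26 with scaling, turned to 0.035 without it. The lowest genes, Asns, Fgf21 and Chac1, are those whose log2 change depends most on the pseudocount.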
